A study of Homo sapiens with 27 samples.

Results

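VCAN, HAPLN1, HAS2, ASPN, DCN, LUM, BGN, FBN1 and FN1 encode 9 proteins, or enzymes that build components, of the matrix around cells. They were taken by symbol from a table of 23230 genes, and all 9 were listed. The members were chosen by earlier results of the same libraries: the lower VCAN and ASPN levels with full-length MAML3 in SK-N-SH cells were already known, and which results led to the other members is not recorded. For that reason the comparison of full-length MAML3 with vector in SK-N-SH is given as a description, and the other SK-N-SH comparisons share libraries with it, so their counts of members are not independent of the choice either.

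Messenger RNA was sequenced from 3 human cell lines: the neuroblastoma line SK-N-SH and a pair of pancreatic neuroendocrine tumour lines, BON-1 and QGP-1. Each line was transfected with the plasmid pCMV6-AC carrying nothing (vector, the control), full-length MAML3 cDNA (FL) or MAML3 cDNA without its first exon (dEx1), both with a V5 tag at the C terminus. RNA was taken on day 3 after transfection, with 3 biological replicates in each of 9 groups. MAML3 is a coactivator of Notch signalling; the first exon of the Mastermind-like proteins encodes the part that contacts the Notch receptor. The plasmid's promoter is a viral one that drives strong expression, the cells keep their own MAML3 gene, and a transfected culture mixes cells with and without plasmid, so each level is an average over both. In such bulk RNA, fewer cells of a type and less RNA per cell cannot be told apart.

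The deposited values summed to between 73026244 and 120254457 units per library. Levels are given as CPM, counts scaled to a common library size, after TMM scaling over all 27 libraries. MAML3 itself had between 16.98 and 29.9 CPM in SK-N-SH vector libraries, between 7958 and 15759 CPM in the FL libraries and between 4888 and 13890 CPM in the dEx1 libraries, and it was higher in every FL and dEx1 library of BON-1 and QGP-1 than in their vector libraries. Counts per gene do not tell the 2 constructs apart. SK-N-SH vector replicate 3 was the vector library nearest to the dEx1 mean for every member but BGN: it had the highest VCAN, HAPLN1, ASPN, DCN, LUM and FBN1 of the 3 vector libraries, and the lowest HAS2 and FN1. Counts of calls are therefore also given without it. Since it was singled out on the members' own values, those counts are descriptions. Changes are log2 fold changes from edgeR's quasi-likelihood F test in the 9 libraries of a line, and a gene is called changed at a Benjamini-Hochberg adjusted p under 0.05 over all genes of that line. These fits hold no term for the replicate number, which enters as a block in an alternative fit. How many of all genes have groups that do not overlap was not counted, so such statements are descriptions.

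Versican (VCAN) is a large chondroitin sulfate proteoglycan that binds the sugar polymer hyaluronan. HAPLN1 is the link protein that locks such proteoglycans onto hyaluronan, and HAS2 is a membrane enzyme that makes hyaluronan. Decorin (DCN), lumican (LUM), biglycan (BGN) and asporin (ASPN) are small leucine-rich proteoglycans that bind collagen fibrils or growth factors of the TGF-beta family. Fibrillin-1 (FBN1) forms the microfibrils that carry elastin and store latent TGF-beta, and fibronectin (FN1) is the adhesive glycoprotein that integrins assemble into fibrils. Together such genes are typical of fibroblasts and other mesenchymal cells, and SK-N-SH is known as a line that holds both neuronal and mesenchymal-like cells.

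On GRCh37/hg19 (GENCODE), VCAN lies at chr5:82767437-82878122, HAPLN1 at chr5:82933624-83016674, ASPN at chr9:95218487-95244788, DCN at chr12:91534261-91576994 and LUM at chr12:91496406-91505271. BGN lies at chrX:152760438-152775004, FBN1 at chr15:48700510-48937918 and FN1 at chr2:216225163-216300796. VCAN and BGN are on the plus strand and the others on the minus strand, and each value counts the whole gene.

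Per kilobase of transcript in SK-N-SH vector libraries, FN1 was the most abundant member, at 394 ± 34.0 CPM per kb (SD, n = 3). BGN followed at 158 ± 28.3, FBN1 at 104.5 ± 21.1, LUM at 77.9 ± 51.3 and VCAN at 77.5 ± 8.27 CPM per kb. Lower levels were those of HAS2 (32.6 ± 10.8), HAPLN1 (21.7 ± 7.69), DCN (11.6 ± 2.37) and ASPN (1.97 ± 0.924 CPM per kb). The libraries of FBN1 and LUM overlapped, as did those of LUM and VCAN and those of HAS2 and HAPLN1, so these neighbours in the order did not differ beyond their spread. With FL, HAS2 came after FN1 and BGN at 71.4 ± 19.8 CPM per kb, overlapping LUM and FBN1, and HAPLN1 (6.5 ± 2.66 CPM per kb) stood below DCN (10.7 ± 0.508 CPM per kb) without overlap. With dEx1 HAS2 stood above ASPN alone at 13.1 ± 0.475 CPM per kb, overlapping DCN.

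**Figure D1:**
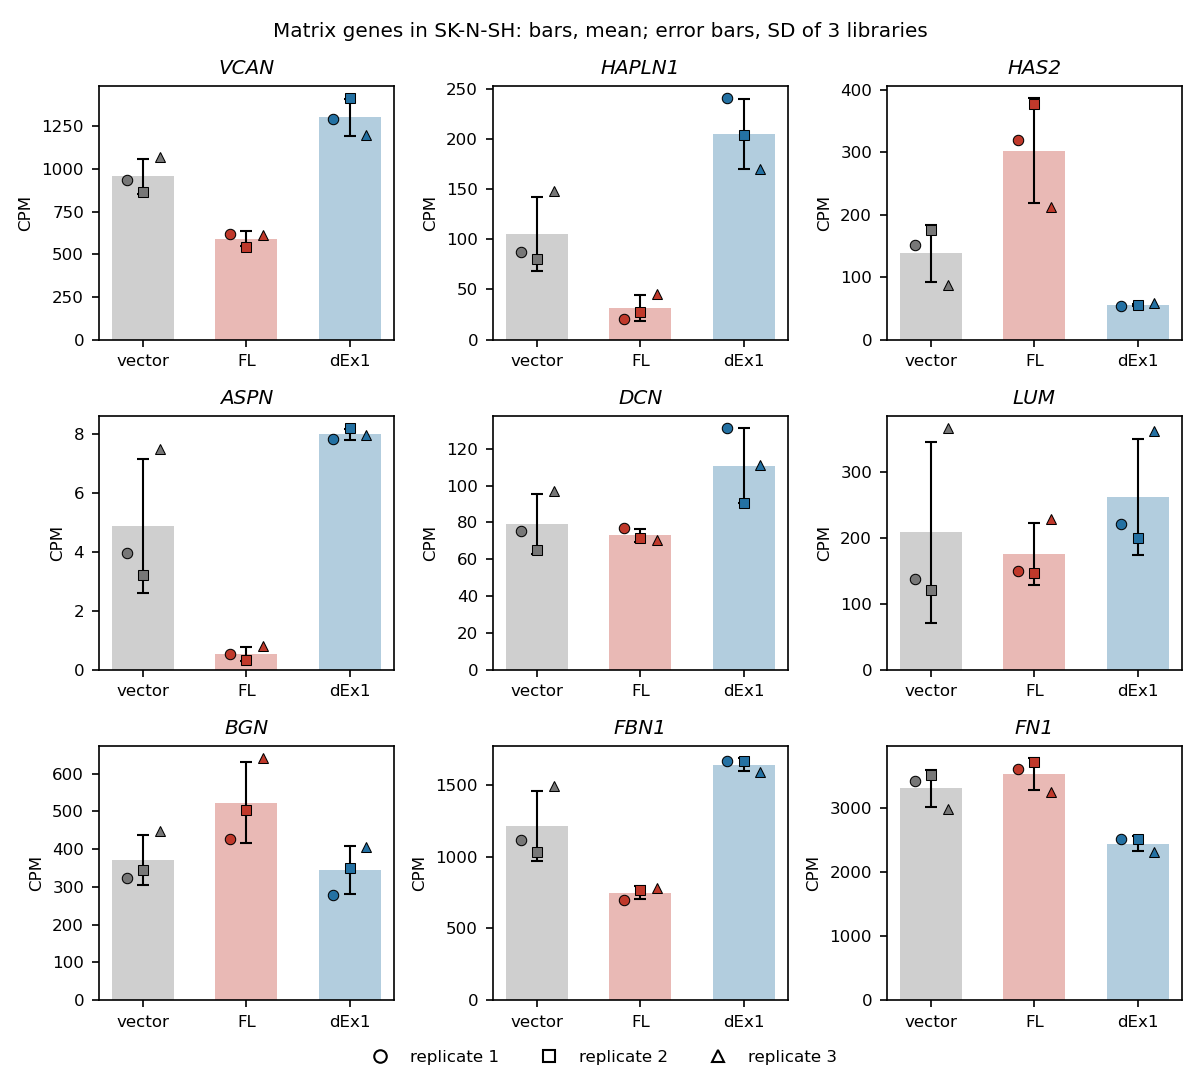
Level of each of the 9 genes in the SK-N-SH libraries with vector, FL and dEx1 (CPM, axes from 0); bars are means and error bars the SD of 3 libraries, and each point is 1 library, with its shape giving the replicate number. VCAN, HAPLN1, ASPN and FBN1 lie lowest with FL and highest with dEx1, while HAS2 lies highest with FL and lowest with dEx1.

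The promoters of VCAN, HAPLN1 and ASPN are shown as examples of members with FL lowest and dEx1 highest in SK-N-SH. Each sequence is the part of the 250 bases before the start of the canonical transcript (GENCODE, GRCh37/hg19) that lies ahead of every annotated transcript start, read on the gene's own strand. The VCAN stretch is chr5:82767313-82767436 on the plus strand, HAPLN1 is chr5:83016675-83016924 on the minus strand and ASPN is chr9:95244789-95245038 on the minus strand. Capitals mark the matches to motifs searched.
VCAN: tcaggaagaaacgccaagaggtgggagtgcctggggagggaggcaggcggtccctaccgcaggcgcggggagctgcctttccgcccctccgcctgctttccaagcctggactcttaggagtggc
HAPLN1: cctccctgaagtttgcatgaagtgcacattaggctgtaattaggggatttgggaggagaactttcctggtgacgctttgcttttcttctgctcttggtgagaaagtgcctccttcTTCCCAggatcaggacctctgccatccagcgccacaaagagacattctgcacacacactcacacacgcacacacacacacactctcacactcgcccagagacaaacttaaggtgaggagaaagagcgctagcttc
ASPN: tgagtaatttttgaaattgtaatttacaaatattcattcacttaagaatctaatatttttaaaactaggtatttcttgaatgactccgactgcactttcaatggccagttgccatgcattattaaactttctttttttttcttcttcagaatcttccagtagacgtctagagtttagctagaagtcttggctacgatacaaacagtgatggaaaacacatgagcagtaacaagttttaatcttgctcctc

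The results of a motif search on both strands are given here for 4 motifs in the 250 bases of VCAN, HAPLN1, HAS2, ASPN, DCN, LUM, BGN and FN1: TGGGAA, the core letters bound by RBPJ, the DNA-binding partner of Notch; TGANTCA (bound by AP-1); TATAAA (the TATA box); and CCAAT (bound by NF-Y). No 2 matches overlapped. In the HAPLN1 promoter TGGGAA lay on the opposite strand, at bases -135 to -130 from the start, a motif that 19.6% of 19874 promoters of that length held. CCAAT, in 34.3% of promoters, was in those of HAS2 and FN1, and neither TGANTCA (4.69% of promoters) nor TATAAA (9.26%) was in any of these promoters. The 250 bases held 60.8% G and C in VCAN, 50.8% in HAPLN1 and 32.4% in ASPN, against a median of 63.2% over all promoters. 

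In SK-N-SH the most calls, of members and of all genes alike, fell between the 2 forms of MAML3. Over all genes 3226 were called there, against 255 for FL and 656 for dEx1 against vector. With dEx1, VCAN, HAPLN1, ASPN, FBN1 and DCN were higher than with FL, and HAS2 and FN1 were lower. In all, 7 of 9 members were called (5 higher, 2 lower), VCAN and ASPN among them. Beside this, 22% of the 14674 genes tested were called (10.5% higher and 11.5% lower). The FL libraries compared here are those whose low VCAN and ASPN levels were known when the members were chosen, which favours a higher value with dEx1, so the count is a description and nothing is read from it. The median log2 fold change was 0.61 over the 9 members and near 0 over all genes, where 7344 of 14674 were higher. Without vector replicate 3 the number called was 8, beside 4024 of 15043 genes. HAPLN1, HAS2 and FBN1 kept their call in all 20 alternative fits, and FN1 in 19 of them. Those fits reuse the same libraries and describe how the calls depend on the settings. For VCAN and ASPN no such count is given, as their FL levels were part of the choice.

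For VCAN the 3 vector libraries had 937, 865 and 1067 CPM, the FL libraries 619, 541 and 611 CPM and the dEx1 libraries 1293, 1414 and 1198 CPM. The 3 groups did not overlap, with FL lowest and dEx1 highest. VCAN was higher with dEx1 than with FL, by a log2 fold change of 1.15 (SE 0.11), a value given without a test because the FL libraries were part of the choice. In a fit of all 27 libraries it did not pass the threshold.

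HAPLN1, which fixes versican to hyaluronan, had 87.3, 80.6 and 148 CPM in the vector libraries, 21.0, 27.6 and 45.9 CPM in the FL libraries and 241, 204 and 170 CPM in the dEx1 libraries. Every FL library was below every vector library, and every dEx1 library above. HAPLN1 differed between dEx1 and FL by a log2 fold change of 2.71 (SE 0.34, adjusted p = 0.00151). The gene lies next to VCAN on chromosome 5, with 55501 bases between them and on the opposite strand.

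HAS2, on chromosome 8, went the other way: it had 152, 175 and 86.8 CPM in the vector libraries, 319, 377 and 212 CPM in the FL libraries and 53.9, 55.0 and 57.8 CPM in the dEx1 libraries. Its groups did not overlap either, and the 3 dEx1 libraries lay within a narrow range. HAS2 was lower with dEx1 than with FL, at a log2 fold change of -2.44 (SE 0.28, adjusted p = 0.00132), and lower than with vector, at -1.31 (SE 0.27, adjusted p = 0.0346). The second of these calls held in 12 of 20 alternatives and was lost when vector replicate 1 or 2, FL replicate 1 or any dEx1 library was left out. The antisense gene HAS2-AS1 followed it, at a mean of 8.37 CPM with vector, 16.9 with FL and 3.85 with dEx1. Since the strand of counting is not stated, reads of the 2 genes cannot be told apart.

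The balance of these 3 hyaluronan genes within a library is given as a description, without any scaling between libraries. As a percent of VCAN, both per kb, HAS2 stood at 47.3%, 58.8% and 23.7% in the vector libraries, at 150%, 203% and 101% with FL and at 12.1%, 11.3% and 14.1% with dEx1. On the same scale HAPLN1 stood at 23.7%, 23.7% and 35.4% in the vector libraries, at 8.64%, 13.0% and 19.1% with FL and at 47.4%, 36.7% and 36.2% with dEx1. Neither ratio overlapped between dEx1 and the other groups. Against vector the two-sided exact permutation p was 0.1 for each ratio, the smallest that 3 against 3 libraries can give. Against FL no test is given, since the low VCAN level with FL was part of the choice. That level was low beside vector, so the vector libraries were part of the choice too. The permutation p against vector is therefore a description, and nothing is read from it.

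ASPN, which binds collagen and TGF-beta ligands, was the scarcest member in SK-N-SH. It had 3.94, 3.21 and 7.47 CPM in the vector libraries, 0.531, 0.324 and 0.794 CPM in the FL libraries and 7.83, 8.18 and 7.94 CPM in the dEx1 libraries. Vector replicate 3 came near the dEx1 libraries, and the FL libraries, with between 29 and 77 deposited units, lay far below the rest. ASPN was higher with dEx1 than with FL by a log2 fold change of 3.86 (SE 0.42), again given without a test.

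Of the other small leucine-rich proteoglycans, DCN had 75.4, 65.2 and 97.1 CPM in the vector libraries, 76.9, 71.7 and 70.4 CPM in the FL libraries and 131, 90.5 and 111 CPM in the dEx1 libraries. DCN was higher with dEx1 than with FL by 0.61 (SE 0.17, adjusted p = 0.0361), a call held in 12 of 20 alternatives; it was lost without vector replicate 1, any FL library or dEx1 replicates 1 or 3 (adjusted p up to 0.121), and in a fit of all 27 libraries (adjusted p = 0.545). LUM lies beside DCN on chromosome 12, with 28989 bases between them, and had 138, 121 and 366 CPM in the vector libraries, 150, 146 and 229 CPM in the FL libraries and 221, 200.3 and 362 CPM in the dEx1 libraries. Replicate 3 held the highest LUM level in each group, the groups overlapped, and LUM was not called between dEx1 and FL (log2 fold change 0.59, SE 0.43, adjusted p = 0.376). Within each replicate number LUM was higher with dEx1 than with FL. It was called with a term for replicate 3 and with replicates 1 and 2 alone (adjusted p from 0.00975 to 0.763 over the 20 alternatives). With the term for replicate 3 all 9 members were called, beside 5138 of 14674 genes.

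BGN, a collagen-binding proteoglycan of the X chromosome, had 324, 345 and 448 CPM in the vector libraries, 427, 504 and 640 CPM in the FL libraries and 277, 350 and 405 CPM in the dEx1 libraries. Replicate 3 was again the highest in each group. Every dEx1 library was below every FL library, but BGN was not called (log2 fold change -0.60, SE 0.20, adjusted p = 0.0623). With the replicate number as a block the adjusted p was 0.00135, which brings the members called to 8, beside 4818 of 14674 genes.

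FBN1, the microfibril protein, had 1118, 1030 and 1491 CPM in the vector libraries, 698, 766 and 783 CPM in the FL libraries and 1666, 1670 and 1593 CPM in the dEx1 libraries. As for VCAN, the 3 groups were apart, with FL lowest. FBN1 differed between dEx1 and FL by a log2 fold change of 1.14 (SE 0.14, adjusted p = 0.00138). FN1 had 3420, 3517 and 2981 CPM in the vector libraries, 3605, 3721 and 3246 CPM in the FL libraries and 2507, 2506 and 2310 CPM in the dEx1 libraries. Its vector and FL libraries overlapped and its dEx1 libraries were below both. FN1 was lower with dEx1 than with FL, at -0.52 (SE 0.10, adjusted p = 0.00652), and lower than with vector, at -0.44 (SE 0.10, adjusted p = 0.0409). The call against vector held in 9 of 20 alternatives, and among the libraries left out in turn it remained without vector replicate 3 or FL replicate 3 alone.

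**Figure D2:**
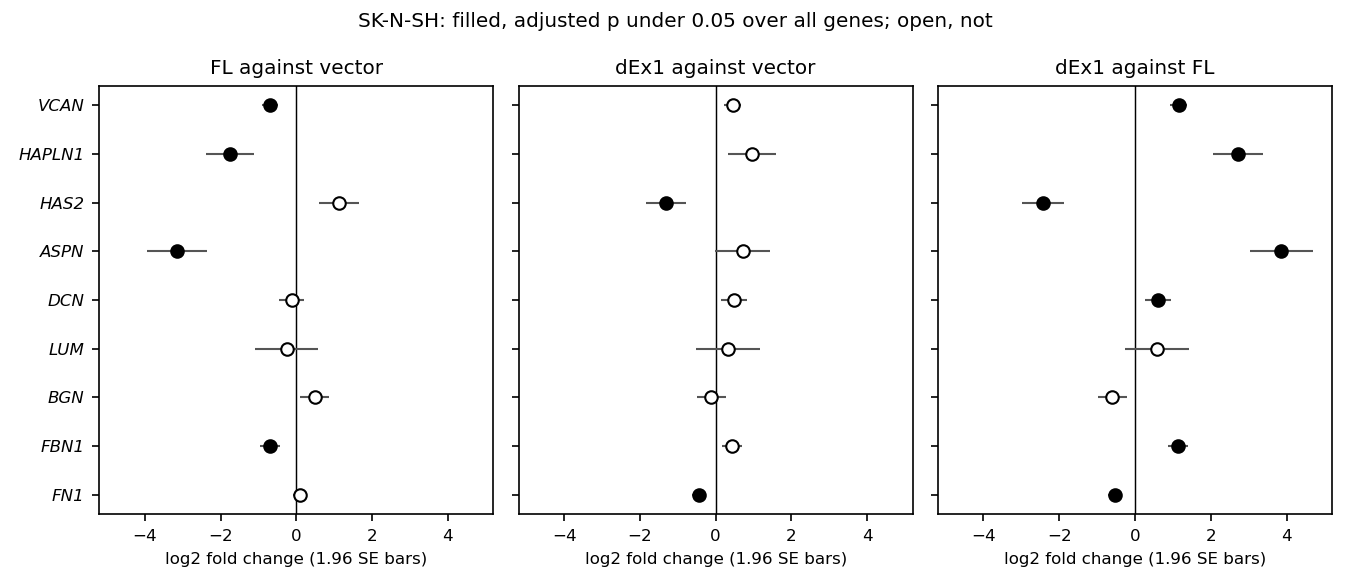
Log2 fold change of each of the 9 genes in the 3 SK-N-SH comparisons, with bars for the 95% confidence interval (from a normal approximation to the SE); filled points are past an adjusted p of 0.05. The dEx1 against FL changes run from -2.44 for HAS2 to 3.86 for ASPN. For VCAN and ASPN the fill of a point is a description, since their levels were part of the choice of members.

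Against vector, fewer members were called with dEx1. HAS2 and FN1 were called lower, so 2 of 9 members were called, beside 4.47% of the 14674 genes (3.64% called lower). VCAN (log2 fold change 0.45, SE 0.11, adjusted p = 0.0562), HAPLN1 (0.96, SE 0.32, adjusted p = 0.125), ASPN (0.71, SE 0.37, adjusted p = 0.291) and FBN1 (0.44, SE 0.14, adjusted p = 0.106) had all 3 dEx1 libraries above all 3 vector libraries and were not called. The share of all genes with such a separation was not counted, so nothing is read from it. For VCAN and ASPN the vector libraries were part of the choice, so their adjusted p values in this comparison are descriptions. With the replicate number as a block 5 members were called, beside 2212 of 14674 genes: VCAN (adjusted p = 0.0368), HAPLN1 (0.0499) and FBN1 (0.0481) joined HAS2 and FN1. Without vector replicate 3 the number was 7, beside 2558 of 15043 genes. That library was singled out on the members' own values, so nothing is read from the 7. With vector replicate 1 or 2 left out instead, the number was 0, beside 108 of 14957 and 154 of 15039 genes. It was also 0 when either the 6 libraries compared (300 of 14198 genes called) or all 27 (559 of 16883) were fitted. The changes of DCN (0.49, SE 0.17), LUM (0.33, SE 0.43) and BGN (-0.11, SE 0.20) were not called and their libraries overlapped. The median over the 9 members was 0.44, and over all genes 0.01.

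The comparison of FL with vector is the one in which the members were partly chosen, and its values are given as description. ASPN stood at 0.549 ± 0.236 CPM with FL and 4.87 ± 2.28 CPM with vector (SD, n = 3), a log2 fold change of -3.15 (SE 0.41). HAPLN1 had -1.75 (SE 0.32), VCAN -0.70 (SE 0.11) and FBN1 -0.70 (SE 0.14), and in each of these 4 genes every FL library was below every vector library. The share of all genes apart in this way was not counted, so nothing is read from it. HAS2 stood at 303 ± 84.1 CPM against 138 ± 45.7 CPM, a log2 fold change of 1.13 (SE 0.27), with every FL library above. BGN had 0.48 (SE 0.20), FN1 0.09 (SE 0.10), DCN -0.13 (SE 0.17) and LUM -0.26 (SE 0.43), with overlapping libraries. Of the 9 members 4 were past the threshold, beside 1.74% of all genes, all 4 lower, beside 0.804%. The choice of members touches this count, and nothing is read from it. It was 6 with the replicate block, which added HAS2 and BGN, beside 778 of 14674 genes. Without vector replicate 3 it was 3, beside 209 of 15043 genes. It was 0 without FL replicate 1 (32 of 15041 genes called) or 2 (21 of 14961).

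**Figure D3:**
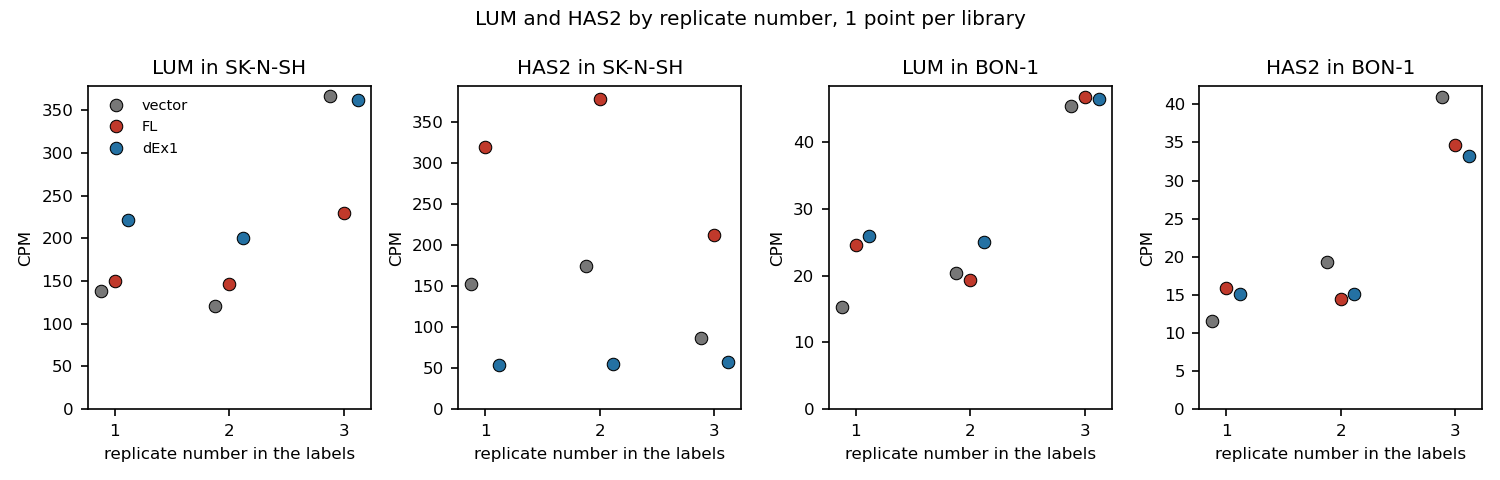
LUM and HAS2 levels (CPM, axes from 0) by replicate number in SK-N-SH and BON-1, 1 point per library, coloured by plasmid. LUM is highest in replicate 3 in all 3 groups of both lines, HAS2 likewise in BON-1, while in SK-N-SH HAS2 separates by plasmid.

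The other genes of the hyaluronan, proteoglycan, microfibril and glycoprotein families were read from 9 lists, which were also drawn up with earlier results known. Between dEx1 and FL in SK-N-SH, 41 of 102 genes tested were called (40.2%), 29 higher and 12 lower, with a median log2 fold change of 0.35, beside 22% of all 14674 genes (10.5% higher and 11.5% lower). The counts of the single lists below are to be set beside the same 22%. In the hyaluronan list 4 of 11 were called, 2 in each direction. TNFAIP6, which moves heavy chains onto hyaluronan, was lower (-7.18, SE 0.92, adjusted p = 0.00169), from 85.0 ± 66.3 CPM with FL to 0.58 ± 0.351 CPM with dEx1. The hyaluronan receptor CD44 was lower as well (-0.67, SE 0.13, adjusted p = 0.00784), at 495 ± 56.1 CPM against 794 ± 85.7 CPM. HAS3, another hyaluronan synthase, was higher (2.25, SE 0.46, adjusted p = 0.0105), at 36.7 ± 8.01 CPM against 7.74 ± 2.73 CPM, so the 2 synthases moved in opposite directions between these groups. ITIH3, a heavy chain that is attached to hyaluronan, had 7.32 ± 4.84 CPM with dEx1 and 0.134 ± 0.145 CPM with FL (adjusted p = 0.0161).

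Among the other lecticans and link proteins 3 of 6 were called. Aggrecan (ACAN) was higher with dEx1 than with FL (1.81, SE 0.41, adjusted p = 0.0157), whereas brevican (BCAN, -1.76, SE 0.43, adjusted p = 0.02) and HAPLN3 (-1.08, SE 0.22, adjusted p = 0.00947) were lower, so HAPLN3 and HAPLN1 differed in direction. Of 5 proteases that cut versican 3 were called, and all 3 were lower. ADAMTS9 was lower by a log2 fold change of -2.06 (SE 0.30, adjusted p = 0.00273), at 38.6 ± 8.91 CPM against 162 ± 42.2 CPM. ADAMTS4 was lower as well (-1.58, SE 0.24, adjusted p = 0.00319), at 34.96 ± 5.84 CPM against 105 ± 35.4 CPM. ADAMTS20 was listed at 0 in all 3 dEx1 libraries and had 0.462 ± 0.0465 CPM with FL and 0.361 ± 0.24 CPM with vector, close to the floor of 15 units per library. ADAMTS1 had 157 ± 19.2 and 145 ± 28.6 CPM and was not called.

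In the microfibril and elastic fibre list, to which FBN1 belongs by function, 9 of 23 other genes were called between dEx1 and FL, 8 higher and 1 lower, with a median of 0.41, and 14 were not called. MFAP5, a microfibril glycoprotein, was higher by 3.03 (SE 0.49, adjusted p = 0.00413), at 317 ± 42.7 CPM against 39.1 ± 12.96 CPM. FBLN5, which helps elastin assemble, was higher by 1.65 (SE 0.20, adjusted p = 0.00146), and fibrillin-2 (FBN2) by 1.31 (SE 0.23, adjusted p = 0.00578). EMILIN2 was the gene called lower (-1.26, SE 0.18, adjusted p = 0.00259). Of 15 other matrix glycoproteins 6 were called, 5 higher and 1 lower; NID2, a basement membrane protein, was higher by 0.96 (SE 0.14, adjusted p = 0.00276) and TNXB by 1.58 (SE 0.27, adjusted p = 0.00462).

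Cell surface and basement membrane proteoglycans had 7 of 14 called, 6 higher and 1 lower. The one lower was SRGN, the intracellular proteoglycan serglycin (-4.98, SE 0.51, adjusted p = 0.000861), at 0.198 ± 0.108 CPM with dEx1 and 6.38 ± 2.1 CPM with FL. CSPG5 (1.77, SE 0.53, adjusted p = 0.0433), CSPG4 (1.68, SE 0.37, adjusted p = 0.0138) and syndecan-2 (SDC2, 1.54, SE 0.33, adjusted p = 0.0122) were higher. Enzymes that build chondroitin and dermatan sulfate chains split, with 4 higher and 2 lower of 19 and a median of -0.01; DSEL, a dermatan sulfate epimerase, was higher by 1.39 (SE 0.15, adjusted p = 0.00103) and the sulfotransferase CHST11 was lower (-0.84, SE 0.13, adjusted p = 0.00332). Of the other small leucine-rich proteoglycans 1 of 4 was called, PRELP (1.99, SE 0.50, adjusted p = 0.0225). Of 6 TGF-beta ligands and early targets 2 were called, both higher: TGFBI by 1.34 (SE 0.20, adjusted p = 0.00281) and PMEPA1 by 0.90 (SE 0.21, adjusted p = 0.0161).

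**Figure D4:**
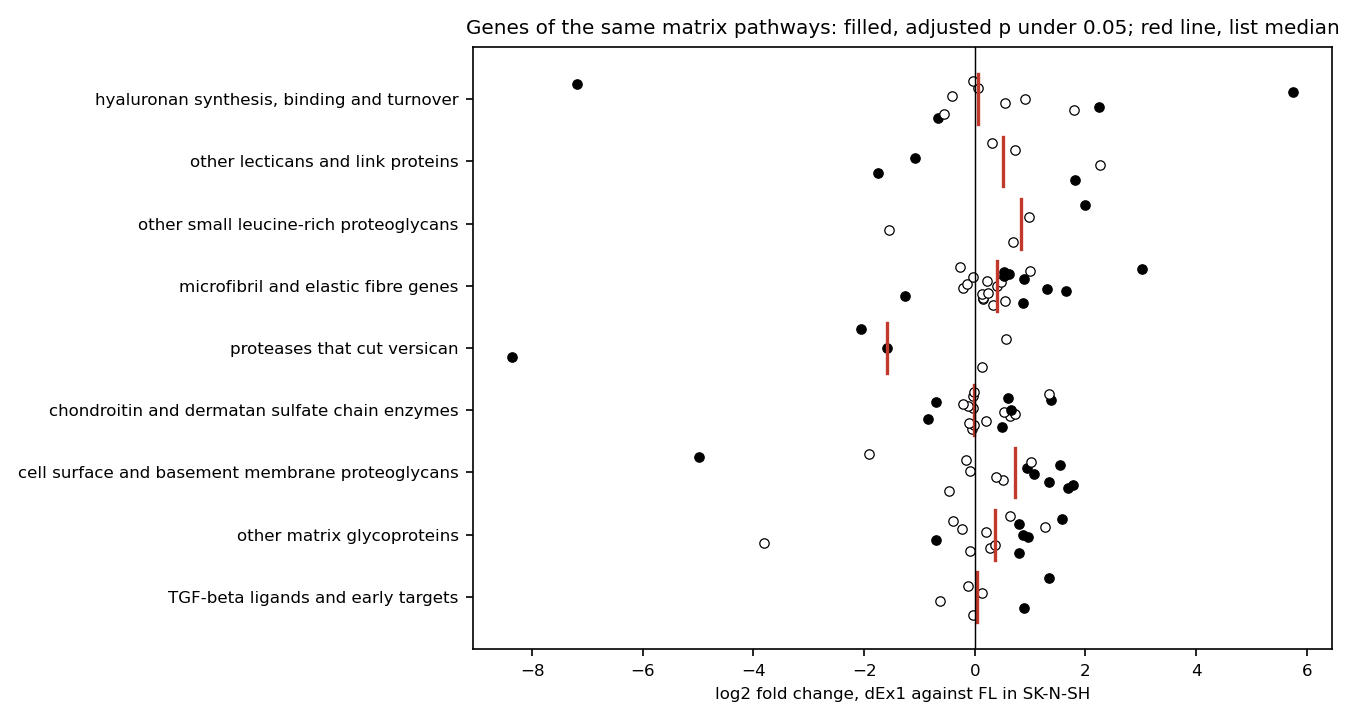
Log2 fold change between dEx1 and FL in SK-N-SH for every tested gene of the 9 matrix lists, 1 point per gene, with filled points past an adjusted p of 0.05 and a red line at each list's median. Most filled points lie above 0, and the 3 filled proteases that cut versican lie below it.

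Against vector, dEx1 changed 1 of these 102 genes (0.98%), ADAMTS20, beside 4.47% of all genes, and the median was 0.22. With FL, 7 of 102 were called against vector (6.86%), 3 higher and 4 lower, beside 1.74% of all genes. The higher were TNFAIP6, from 2.04 ± 1.01 CPM with vector to 85.0 ± 66.3 CPM, SRGN, from 0.74 ± 0.328 CPM to 6.38 ± 2.1 CPM, and ADAMTS4, from 43.6 ± 7.89 CPM to 105 ± 35.4 CPM. The lower were LTBP1, which binds latent TGF-beta to fibrillin (440 ± 61.5 CPM to 299.7 ± 14.3 CPM), the glypican GPC1 (327 ± 57.0 CPM to 148 ± 45.6 CPM), DSEL and NID2. In the same 9 libraries LTBP1 was higher with dEx1 than with FL by 0.90 (SE 0.11, adjusted p = 0.00167) and GPC1 by 1.33 (SE 0.21, adjusted p = 0.00332). These comparisons share libraries.

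Some cell type markers were called in the same comparison, beside 22% of all genes. Of the fibroblast list, 5 genes were analysed, all above 1 CPM in SK-N-SH, and their summed level ran from 2546 to 8688 CPM (vector), from 2629 to 4790 CPM (FL) and from 6800 to 10453 CPM (dEx1). Of these, 2 of 5 were called between dEx1 and FL: COL1A1 (1.49, SE 0.46, adjusted p = 0.0484) and PDGFRB (0.88, SE 0.19, adjusted p = 0.0133) were higher with dEx1. All 8 mesenchymal neuroblastoma markers were above 1 CPM in SK-N-SH, with sums between 7387 and 9968 CPM in the vector libraries, 6436 and 9658 CPM in the FL libraries and 8159 and 8958 CPM in the dEx1 libraries; 3 of 8 were called between dEx1 and FL, all lower. Of 8 adrenergic neuroblastoma markers 7 were above 1 CPM (TH was not), with sums from 139 to 220.3 CPM (vector), from 96.9 to 193 CPM (FL) and from 192 to 246 CPM (dEx1). Of the 7 tested, 2 were called higher with dEx1 than with FL, HAND2 (1.21, SE 0.21, adjusted p = 0.00533) and ISL1 (0.73, SE 0.18, adjusted p = 0.0213), and the median was 0.61. Of 5 epithelial markers tested 1 was called higher, KRT8 (0.98, SE 0.21, adjusted p = 0.0122). CD68, on the leukocyte list, was lower with dEx1 than with FL (-2.47, SE 0.16, adjusted p = 0.000238), while PTPRC and CD3E were below 1 CPM in every group. Endothelial markers summed to at most 1.57 CPM in SK-N-SH. The part of these marker levels in the changes of the 9 members was not tested.

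The genes beside the members on the chromosomes gave a count for comparison: of 19 neighbours tested in SK-N-SH, 1 was higher and 3 were lower between dEx1 and FL, a share near the 22% of all genes. The one higher was EDIL3, singled out after its values were seen, an integrin-binding matrix protein whose gene follows HAPLN1 on chromosome 5. EDIL3 stood at 413, 168 and 617 CPM with vector, FL and dEx1, and differed between dEx1 and FL by 1.88 (SE 0.34, adjusted p = 0.00644). XRCC4, on the other side of VCAN, had 10.6, 9.75 and 11.9 CPM and was not called. OMD and OGN, small leucine-rich proteoglycans beside ASPN, and KERA and EPYC, beside LUM and DCN, had at most 0.0936 CPM on average in any SK-N-SH group.

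Over the 9 SK-N-SH libraries, the genes most like each member in log2 CPM were listed as description, among 11251 genes of at least 2 CPM. For VCAN these were TCF7L1 (Pearson r = 0.994), PIAS3 and DCLK2. For HAPLN1 they were PLCL1 (r = 0.991), PRSS12 and RAC3, and for FBN1 CPA4 (r = 0.993), SORT1 and PRSS12. For HAS2 they were HAS2-AS1 (r = 0.993), M6PR and ACTR6, for ASPN LMNA, GNAS and ARL6IP5, for DCN SMARCE1, CLTC and CLASP2, for LUM PLOD1, BTBD6 and AKAP12, and for FN1 DMD, PHLDA1 and USP25. BGN was compared in BON-1, where it was highest, and LRIG2 (r = 0.971), TMEM175 and ZBTB12 came first. The 9 points of each correlation share 3 groups and 3 replicate numbers.

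The 3 lines differed widely in these genes with the empty vector alone. In vector libraries 8 of 9 members were higher in SK-N-SH than in BON-1 and 1 was lower, all called, beside 60.6% of 16883 genes (29.7% higher, 30.9% lower). VCAN was higher by 7.80 on the log2 scale (SE 0.79), FBN1 by 7.62 (SE 0.42), LUM by 2.94 (SE 0.51), HAS2 by 2.52 (SE 0.52) and FN1 by 2.37 (SE 0.28). HAPLN1, DCN and ASPN were at or under 15 units in every BON-1 vector library, and stood at least 554-fold, 416-fold and 25.6-fold higher in SK-N-SH. BGN was the exception, at 372 ± 66.5 CPM in SK-N-SH and 833 CPM in BON-1, where vector replicate 1 had 1216 CPM and the others 732 and 552 CPM. BGN differed by a log2 fold change of -1.19 (SE 0.41, adjusted p = 0.018), a call lost without that BON-1 library or without SK-N-SH vector replicates 1 or 2 (adjusted p up to 0.11).

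**Figure D5:**
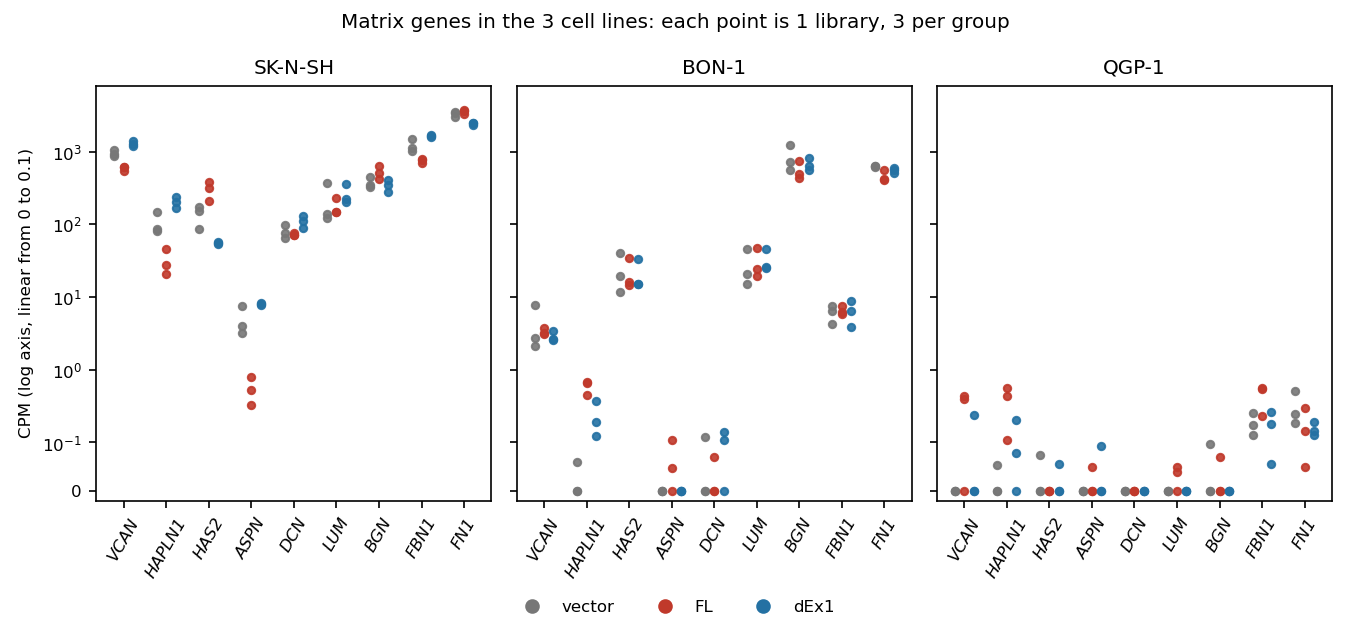
Level of each gene (CPM, with a log scale that includes 0) in every library of the 3 lines, coloured by plasmid. SK-N-SH holds all 9 genes, BON-1 holds mainly BGN, FN1, LUM and HAS2, and QGP-1 lies below 1 CPM throughout.

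In BON-1 the transfected MAML3 was not followed by a called change in any member. Of the 9, 7 passed the filter on low counts (ASPN and DCN did not), and 0 were called by edgeR in each comparison, beside 0.00671% of 14903 genes for FL against vector, 0.0134% for dEx1 against vector and 0% for dEx1 against FL. At an unadjusted p under 0.05 the counts were 2, 1 and 0 members, beside 576, 429 and 156 of 14903 genes. DESeq2 called 1, 0 and 0 members, beside 28, 35 and 8 of 14865 genes. FN1 had 645, 632 and 611 CPM in the vector libraries, 425, 410 and 563 CPM in the FL libraries and 502, 552 and 591 CPM in the dEx1 libraries, so that both MAML3 groups lay below vector. The change with FL was -0.44 (SE 0.14, adjusted p = 0.928). BGN had between 440 and 746 CPM with FL, between 566 and 812 CPM with dEx1 and between 552 and 1216 CPM with vector.

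HAPLN1 in BON-1 was close to 0 in the vector libraries (0, 0 and 5 deposited units) and had 72, 61 and 44 units with FL and 34, 19 and 12 units with dEx1. The FL libraries were the highest, at most 0.668 CPM, against at least 21.0 CPM in any SK-N-SH library. HAPLN1 was not called by edgeR (adjusted p = 0.928 for FL against vector), and it was the member called by DESeq2. LUM was highest in replicate 3 of each BON-1 group, at 45.4, 46.8 and 46.4 CPM with vector, FL and dEx1, against 15.3 to 26.0 CPM in the other libraries. HAS2 had the same pattern, at 40.9, 34.6 and 33.3 CPM against 11.6 to 19.2 CPM. Thus in BON-1 these 2 genes varied with the replicate number more than with the plasmid. VCAN ran from 2.15 to 7.66 CPM and FBN1 from 3.85 to 8.74 CPM, with overlapping groups.

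In QGP-1 no member reached 1 CPM in any library. The highest value was 0.569 CPM, DCN was listed at 0 in all 9 libraries, and 4 members passed the filter. By edgeR 0 of them were called in each comparison, beside 0.0275%, 0.0207% and 0.0138% of 14522 genes for FL against vector, dEx1 against vector and dEx1 against FL. The members with an unadjusted p under 0.05 numbered 2, 0 and 0, beside 737, 527 and 186 of 14522 genes. DESeq2 called 0 members in each, beside 112, 59 and 19 of 14498 genes. HAPLN1 had 5, 0 and 0 units with vector, 43, 74 and 11 units with FL and 18, 0 and 8 units with dEx1, so every FL library was above every vector library, FL and dEx1 overlapped, and HAPLN1 was not called. Against QGP-1, SK-N-SH vector libraries had at least 5874-fold more VCAN, 2287-fold more BGN, 1279-fold more LUM, 848-fold more HAS2, 647-fold more HAPLN1, 487-fold more DCN and 29.9-fold more ASPN. All 9 members were called higher than in QGP-1 (60.6% of genes called, 30.6% higher), and 6 were called higher in BON-1 than in QGP-1 (51.4% of genes called, 27.7% higher): VCAN, HAS2, LUM, BGN, FBN1 and FN1.

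Whether the effect of dEx1 differed between lines was tested in 1 model of all 27 libraries. None of the 9 members was called for SK-N-SH against BON-1 (0 of 9, beside 0.332% of 16883 genes), for SK-N-SH against QGP-1 (0.521%) or for BON-1 against QGP-1 (0%). Some members could not have been called, as a line was at 0 in both groups. These were ASPN against BON-1 (SE 1622) and DCN (SE 2668) and LUM (SE 1152) against QGP-1. For BON-1 against QGP-1 they were ASPN, DCN and LUM. HAS2, BGN and ASPN had at most 7, 9 and 9 units in any QGP-1 library, under the floor, and VCAN was at 0 in its vector libraries. For these members too the comparisons with QGP-1 show little. At an unadjusted p under 0.05 the member counts were 0, 0 and 1, beside 1843, 1745 and 660 of 16883 genes. DESeq2 called 0 in each, beside 369 of 15558, 403 of 15231 and 38 of 16867 genes. For HAS2 the effect was -1.14 (95% confidence interval -2.51 to 0.23) in SK-N-SH minus BON-1, and for FN1 it was -0.23 (-0.97 to 0.51). The called falls of HAS2 and FN1 in SK-N-SH are therefore not shown to differ from BON-1, and the intervals are wide. The effect of FL was compared between BON-1 and QGP-1, where edgeR called 0 of 9 (0.0118% of genes), with 2 at an unadjusted p under 0.05, beside 782 of 16883 genes. DESeq2 called 1, VCAN, beside 49 of 16867 genes. Here ASPN (SE 3939), at 0 in the vector libraries of both lines, and DCN (SE 4454), at 0 throughout QGP-1, could not have been called.

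Marker levels also set the lines apart. The summed fibroblast markers stayed at or below 2.66 CPM in BON-1 and 10.9 CPM in QGP-1, with COL1A2, COL3A1, PDGFRB and THY1 below 1 CPM on average in both. Of 6 epithelial markers, EPCAM, CDH1 and KRT19 were below 1 CPM in SK-N-SH and above it in the pancreatic lines. The other 3, KRT8, KRT18 and CLDN4, were above 1 CPM in SK-N-SH as well. The 6 summed to between 117 and 238 CPM in SK-N-SH vector libraries, 6797 and 15512 CPM in BON-1 and 4351 and 5695 CPM in QGP-1. All 7 neuroendocrine markers analysed were above 1 CPM in BON-1, 6 of 7 in QGP-1 and 4 of 7 in SK-N-SH. In vector libraries they summed to between 564 and 1440 CPM in SK-N-SH, 14583 and 38100 CPM in BON-1 and 4247 and 7036 CPM in QGP-1. With vector, mesenchymal neuroblastoma markers above 1 CPM numbered 5 of 8 in BON-1 and 3 of 8 in QGP-1, and adrenergic ones 1 of 8 and 4 of 8.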

How the data were processed

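RNA was sequenced from 27 libraries: 3 cell lines, 3 plasmids and 3 biological replicates per group, prepared with a TruSeq mRNA kit, per the labels' protocols. Per the submitters' processing notes, Trimmomatic, HISAT2 and StringTie were used with hg19, with no versions. The authors deposited estimated counts per gene as whole numbers, 1 column per library; how they were derived, the annotation and the strand are not given in the sources used here. Low values heap at 5 units (7317 values), so the worth of 1 fragment is unknown; the floor of 15 units per library takes it as 5 units, and floors and intervals cover counting error at most. Of 23234 symbols listed, 4 stood on a second line with identical values, leaving 23230.

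Each line's 9 libraries were fitted in edgeR 4.0.16 (R 4.3.3, limma 3.58.1) with filterByExpr, TMM and the quasi-likelihood F test; lines were compared in 1 model of 27 libraries. Standard errors are the size of the log2 fold change over the square root of F. Replicates are biological per the labels. Depth per library was 73026244 to 120254457 units. DESeq2 1.42.0, other filters and scalings, a replicate block, a term for replicate 3 and left-out libraries were alternatives; counts divided by 5, a robust spread and replicates 1 and 2 alone were added after seeing the data. On simulated SK-N-SH counts the test called 74.6% of 67 genes changed 2-fold and 8.96% of 67 changed 1.5-fold (FL against vector, 14313 genes), with 8 false calls among 124. In BON-1 it called 16.4% of 67 genes changed 2-fold (14578 genes), and in QGP-1 26.9% of 67 (14205 genes). The changed genes were all of at least 2 CPM on average. These shares therefore do not cover any member in QGP-1, nor HAPLN1, ASPN and DCN in BON-1, which were below that level.

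Same-numbered libraries deviated together in SK-N-SH and BON-1 (correlations of 0.109 to 0.63 in SK-N-SH and BON-1 against vector, 0.118 to 0.754 for dEx1 against FL) and in QGP-1 for dEx1 against FL (0.467 to 0.81), but not for QGP-1 against vector (lowest -0.402). The main fits held no term for the replicate number, so their adjusted p values leave out this pairing. The replicate block was an alternative fit. Members and lists were chosen with earlier results of these data known. Named were all 9 members, up to 4 called genes per list by size of change, 3 most alike genes per member, MAML3 and chromosomal neighbours. Levels per kb use the canonical GENCODE transcript. Some promoter, motif and marker results are not reported here. Figures were drawn with matplotlib 3.10.9.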

Additional observations from a re-analysis of the deposited data

Results flagged for a closer look

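HAPLN1 differed in direction between lines, in levels that were low in BON-1 and QGP-1 and were not tested against each other. With FL it was lower than with vector in all 3 SK-N-SH libraries (log2 fold change -1.75), and higher than with vector in all 3 BON-1 libraries and all 3 QGP-1 libraries, where it had at most 74 deposited units. Between dEx1 and FL it was higher in all 3 SK-N-SH libraries (log2 fold change 2.71) and lower in all 3 BON-1 libraries. In BON-1 and QGP-1 none of these changes was called by edgeR.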

How the results depend on the processing

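Among members of SK-N-SH, the counts called in FL against vector (4), dEx1 against vector (2) and dEx1 against FL (7) ran from 0 to 4, 0 to 7 and 6 to 8 when each library was left out in turn. Over all genes the calls in those fits ran from 21 to 364, 80 to 2558 and 1857 to 4024. In a fit of all 27 libraries the member counts were 0, 0 and 4, beside 229, 559 and 2309 of 16883 genes. In fits of only the 6 libraries compared the first 2 member counts were 0. For dEx1 against vector the member count was 5 with DESeq2, with the replicate block and with a term for replicate 3. It was 7 with replicates 1 and 2 alone (beside 3267 of 14808 genes) and 1 with a robust spread (beside 652 of 14674 genes). The cause was not tested. DESeq2 called 1 member for FL against vector in BON-1 (beside 28 of 14865 genes) and 1 for the FL effect between BON-1 and QGP-1 (beside 49 of 16867 genes). Over all genes, FL against vector in SK-N-SH called 255, against 778 with the replicate block, 1117 with a term for replicate 3, 1168 with DESeq2 and 28 with only 6 libraries; dEx1 against vector called 656, against 2212, 2714, 1997 and 300. The replicate block changed no other member's call than those given above. Of 1056 alternative values of the members 1017 kept their direction, and the 19 called values did so in all 338 of theirs. Both totals are descriptions, since they reuse the same libraries and include VCAN and ASPN in the comparison used for the choice. Without replicate 3, FL against vector became 0.084 for DCN and 0.20 for LUM. Changes of sign when a library was left out were all in values not called, with these ranges of log2 change. In BON-1 dEx1 against FL: FBN1 -0.36 to 0.21, HAS2 -0.51 to 0.48, LUM -0.24 to 0.56. In BON-1 dEx1 against vector: BGN -0.55 to 0.057, FBN1 -0.26 to 0.31, HAS2 -0.66 to 0.45, LUM -0.078 to 0.86, VCAN -0.88 to 0.21. In BON-1 FL against vector: FBN1 -0.092 to 0.30, HAS2 -0.66 to 0.49, LUM -0.30 to 0.76, VCAN -0.61 to 0.47. In dEx1 effect, SK-N-SH minus BON-1: BGN -0.17 to 0.45, LUM -0.52 to 0.76. In SK-N-SH dEx1 against vector: BGN -0.26 to 0.038. In SK-N-SH FL against vector: DCN -0.25 to 0.053, LUM -0.54 to 0.44. Depth limits ASPN with FL in SK-N-SH and nearly all members in QGP-1.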
